A study of Homo sapiens with 10 samples.

Results

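The genes of MHC class I antigen presentation examined here were HLA-B, HLA-C, B2M, TAP1, TAP2, PSMB8, PSMB9, NLRC5 and TAPBP. These 9 genes, of 19962 protein-coding genes on chromosomes 1 to 22 and X in GENCODE release 44, were chosen by name for their role, and every H3K27ac peak within 20 kb of their gene bodies (build hg38) was collected. The peaks came from SKBR3 and MDA-MB-453, established HER2 breast cancer cell lines, each with 2 untreated libraries and 2 libraries of cells given TWEAK, the ligand of the Fn14 receptor. Per the labels, starvation in Opti-MEM (8 h) preceded 48 h with TWEAK at 10 ng/ml, which was renewed after 24 h. Each library had its own peak list, so 8 lists were compared, and the 2 input samples had none. The starvation was described for all libraries alike, and each line stands for 1 tumour. H3K27ac, an acetyl group on lysine 27 of histone H3, marks active promoters and enhancers.

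Class I molecules carry peptides from inside the cell to its surface, where CD8+ T cells read them. The proteasome cuts proteins into peptides, the TAP transporter moves them into the endoplasmic reticulum, and tapasin helps to load them onto a heavy chain paired with β2-microglobulin. Class I genes are switched on by interferon and by NF-κB signalling, and NLRC5 is the transactivator that is recruited to the conserved promoter elements of the pathway. Loss of class I presentation is a known route by which tumour cells escape T cells.

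Promoters of the pathway hold short elements that bind these regulators. Stretches with an NF-κB or interferon-stimulated response element (ISRE) match are printed below for promoters that hold one. HLA-B, where no list had a peak, is printed as well as members with one. Sequences are from RefSeq (build GRCh38.p14) and run 5′ to 3′ in the direction of the gene. Capitals mark matches to the NF-κB consensus, to the ISRE (GAAA, any 2 bases, GAAA), or to CCAAT, on either strand. Both HLA-B and HLA-C hold an NF-κB match in the stretch from 200 to 115 bases before the RefSeq start, at chr6:31357294-31357379 and chr6:31272207-31272292 on the minus strand. For HLA-C a CCAAT match comes first.
HLA-B: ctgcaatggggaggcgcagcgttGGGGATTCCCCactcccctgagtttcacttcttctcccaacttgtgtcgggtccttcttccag
HLA-C: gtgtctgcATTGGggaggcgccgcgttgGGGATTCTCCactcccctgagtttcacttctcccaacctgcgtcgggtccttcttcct
In B2M (chr15:44711372-44711401, plus strand) a pair of overlapping ISRE matches is followed by an NF-κB match within 30 bases.
B2M: aGAAAAGGAAACTGAAAacgGGAAAGTCCC
TAP1 (chr6:32853817-32853854 and chr6:32853757-32853786, minus strand) holds an overlapping ISRE pair upstream and an NF-κB match closer to its start.
TAP1, upstream: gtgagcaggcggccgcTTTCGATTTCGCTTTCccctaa
TAP1, near the start: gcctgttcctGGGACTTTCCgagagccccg
TAP2 (chr6:32838778-32838807, minus strand) holds an ISRE match alone in the stretch shown, PSMB8 (chr6:32844031-32844060, minus strand) one that spans one of its RefSeq starts, and TAPBP (chr6:33314115-33314144 and chr6:33314079-33314107, minus strand) an NF-κB match and then an overlapping ISRE pair.
TAP2: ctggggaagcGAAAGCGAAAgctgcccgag
PSMB8: atctgtggcTTTCGCTTTCacttcctcctc
TAPBP, upstream: taaccagagcGGGGATTTCCaccgcccctc
TAPBP, near the start: cctttggagGAAAGTGAAAGTGAAAggag
RefSeq promoters (250 bases before to 50 after a start) were at hand for 8 of the 9 members, as 10 entries, and not for NLRC5. The PSMB9 entry and the further entries of PSMB8 and TAP1 held neither an NF-κB nor an ISRE match. Of all 22199 promoters of that length, 6.53% held the NF-κB consensus and 3.17% the ISRE. A match is a match of letters only and does not show that a factor was bound. The NF-κB stretch of HLA-C lay wholly under a peak in 4 of 4 MDA-MB-453 lists and in 0 of 4 SKBR3 lists, and that of HLA-B in none of the 8. The printed stretches of B2M, TAP1, TAP2 and TAPBP lay wholly under a peak in all 8 lists, and that of PSMB8 in 7. Another NF-κB match of TAP1, past its start at chr6:32853673-32853682, is not printed.

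The lists held between 36148 and 51687 peaks, and the SKBR3 list of TWEAK replicate 2, with 51687, stood apart from the other SKBR3 lists, which held 43684 to 45371. Read depth is unknown, and acetylation too weak to be called would appear here as no peak, so peaks were compared by rank. For each gene, the peak within 1 kb of a protein-coding transcription start site with the highest score was taken, and its value is its percentile by that score among all peaks of its own list, with 100 the strongest peak and 0 no peak. Peaks with q under 1e-05 made up 39.4% to 52.6% of the SKBR3 lists and 59.8% to 63.8% of the MDA-MB-453 lists. Equal percentiles can therefore stand for unequal scores. The breast epithelial and HER2 markers ERBB2, EPCAM, KRT8, KRT18, KRT19, GATA3 and FOXA1 had a start-site peak in all 8 lists, and the leukocyte markers PTPRC, CD3E, CD79A and LAPTM5 in none. PECAM1 and COL1A2 had none either, whereas the endothelial marker CDH5 (percentiles 89.2 to 96.5) and the fibroblast marker COL1A1 (79.3 to 99.7) had one in all 8, and their part in the results was not tested.

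A start-site peak was present in all 8 lists for 5 of the 9 members (B2M, TAP1, TAP2, PSMB9 and TAPBP, with TAP1 and PSMB9 by the same peak), against 50.4% of all protein-coding genes. HLA-B had none in any list, as was so for 34.1% of all genes. NLRC5 was marked in all 4 MDA-MB-453 lists and in no SKBR3 list, which held for 4.8% of genes with a peak in at least 1 list. PSMB8 was marked in 7 lists and HLA-C in 5. The plot of start-site percentiles shows these patterns library by library.

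**Figure D1:**
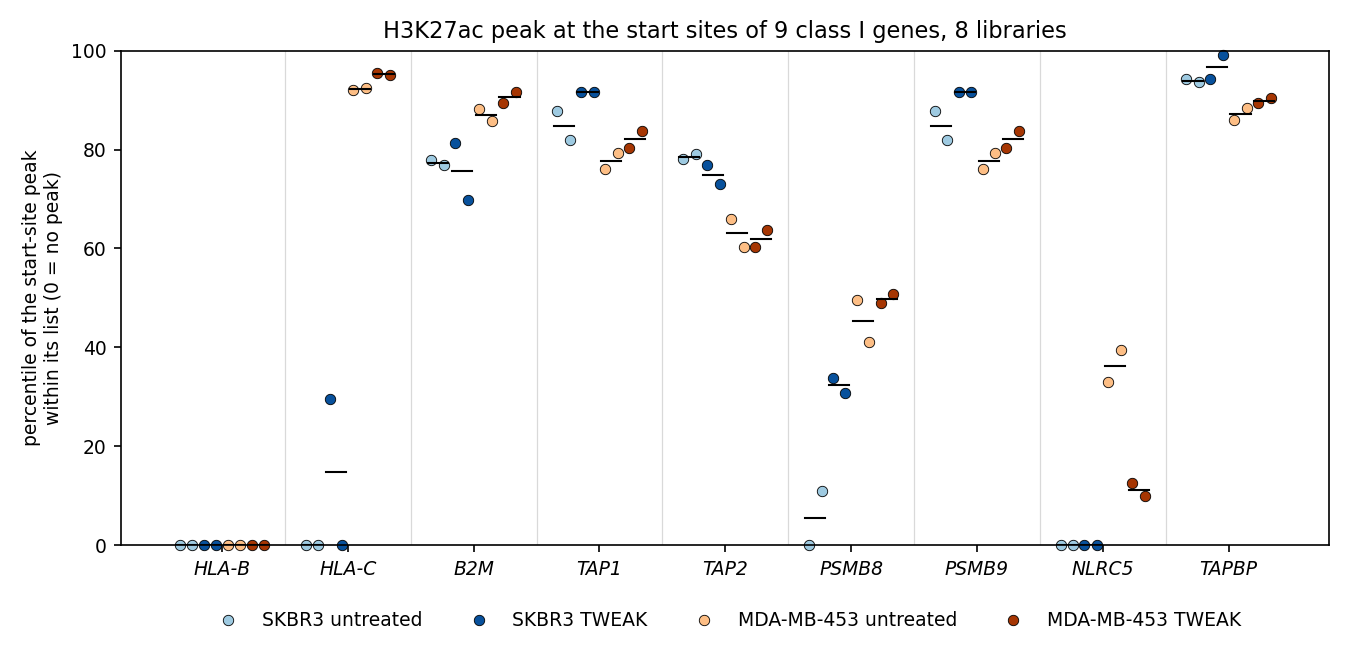
Percentile of the start-site H3K27ac peak within its own list (vertical axis, 0 to 100, 0 meaning no peak) for the 9 genes. Each point is 1 library and each bar the mean of the 2 libraries of a group. HLA-B lies at 0 throughout, HLA-C at 92.1 to 95.5 in MDA-MB-453 and at 0 in 3 of 4 SKBR3 lists, and NLRC5 above 0 in MDA-MB-453 only.

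Of the class I heavy chains, HLA-C (chr6:31268749-31272130) showed the widest gap between the lines. In SKBR3 its start-site peak was absent from both untreated lists and from TWEAK replicate 2, and ranked at percentile 29.6 in TWEAK replicate 1. The MDA-MB-453 lists placed it at 92.1 and 92.4 untreated and at 95.5 and 95.1 with TWEAK. Every MDA-MB-453 list thus lay far above every SKBR3 list, and the authors' fold enrichment over background was 18.4 to 22.5 in MDA-MB-453 against 3.15 in the single SKBR3 list with a peak. The peak was 1668 to 1870 bp wide in MDA-MB-453 and 517 bp wide in SKBR3.

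HLA-B (chr6:31353872-31367067), the other heavy chain gene of the set, had no peak within 20 kb of its gene body in any of the 8 lists. The nearest listed peaks left a gap of 267 to 294 kb around it in SKBR3 and of 126 to 127 kb in MDA-MB-453. Peak numbers run in order within a list, so that removed peaks leave missing numbers, and 0 numbers were missing across this gap in every list. Class I heavy chain genes share near-identical stretches and vary between genomes, so how reads were divided among them is uncertain, and its part in the HLA-B and HLA-C values was not tested.

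B2M (chr15:44711358-44718851) encodes β2-microglobulin, the invariant chain needed by every class I heavy chain. Its start-site peak ranked at 77.8 and 76.9 in the untreated SKBR3 lists, and at 81.3 and 69.9 after TWEAK. The MDA-MB-453 lists placed it at 88.3 and 85.9 before treatment, and at 89.5 and 91.7 after it. All MDA-MB-453 lists were above all SKBR3 lists, and the SKBR3 TWEAK lists lay on either side of the untreated ones.

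TAP1 (chr6:32845209-32853816) and TAP2 (chr6:32821833-32838739) encode the paired subunits of the peptide transporter. The TAP1 peak was also the highest peak at a start site of PSMB9 (chr6:32844136-32859851), which is read in the opposite direction from the same interval, so these 2 members shared 1 measurement. It stood at 87.7 and 81.9 in untreated SKBR3 and at 91.6 and 91.7 with TWEAK. In MDA-MB-453 it stood at 76.1 and 79.2 untreated and at 80.4 and 83.8 with TWEAK. Within both lines the TWEAK lists were above the untreated lists. Fold enrichment at this peak was 8.50 and 8.93 untreated and 12.1 and 10.7 with TWEAK in SKBR3, and 9.54 and 9.95 against 10.2 and 11.3 in MDA-MB-453.

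The TAP2 start-site peak ranked lower, not higher, in the SKBR3 TWEAK lists. It stood at 78.0 and 79.1 untreated and at 76.8 and 73.1 with TWEAK. In MDA-MB-453 the values were 65.9 and 60.4 untreated and 60.3 and 63.7 with TWEAK, and the groups overlapped. All SKBR3 lists were above all MDA-MB-453 lists. TAPBP (chr6:33299694-33314284), which encodes tapasin, stood at 94.3 and 93.6 in untreated SKBR3 and at 94.3 and 99.2 with TWEAK. In MDA-MB-453 it stood at 85.9 and 88.4 untreated and at 89.5 and 90.3 with TWEAK. TAPBP was thus the highest-ranked member in every SKBR3 list, and peaks at its start merged over the 8 lists into a region of 12451 bp that also took in start sites of ZBTB22 and DAXX.

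PSMB8 (chr6:32840717-32844679) and PSMB9 encode catalytic subunits of the immunoproteasome, the interferon-inducible form of the proteasome. The PSMB8 peak in untreated SKBR3 was absent from replicate 1 and stood at 10.9 in replicate 2, and with TWEAK it stood at 33.9 and 30.8. In MDA-MB-453 it stood at 49.7 and 41.0 untreated and at 49.0 and 50.7 with TWEAK. Both SKBR3 TWEAK lists were above both untreated lists, and all SKBR3 lists were below all MDA-MB-453 lists. The annotated 5′ end of PSMB9 lies under this PSMB8 peak rather than under the TAP1 peak, and measured there PSMB9 takes the PSMB8 values.

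NLRC5 (chr16:56989485-57083531), the class I transactivator, had no start-site peak in any SKBR3 list. In MDA-MB-453 the peak stood at 32.9 and 39.4 untreated and at 12.5 and 9.91 with TWEAK, so both TWEAK lists were below both untreated lists. Its fold enrichment was 4.07 and 4.48 untreated and 3.08 and 3.09 with TWEAK. In SKBR3 the listed peaks of the NLRC5 window lay inside the gene instead, or at the start of CPNE2. An intronic region at chr16:57028155-57029580 lay 1989 bp from the nearest NLRC5 start site. It was marked in all 4 SKBR3 lists and in no MDA-MB-453 list. Its percentiles were 48.9 and 48.8 untreated and 40.7 and 24.5 with TWEAK, with fold enrichments of 3.77, 4.45, 3.79 and 3.17. This pattern did not hold among peaks with q under 1e-05 or in lists of equal size. Nor did it hold where 50% of a region had to be covered.

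A second intronic region of NLRC5, at chr16:57013061-57015284, was present in both SKBR3 TWEAK lists, at 46.7 and 41.0, and in neither untreated list. One more, at chr16:57060709-57061924, was present in both untreated SKBR3 lists, at 27.5 and 13.0, and in neither TWEAK list. These were the single gained and the single lost region of SKBR3 in the windows of the 9 genes. Over all merged regions seen in SKBR3, 4.64% were gained in this sense and 1.39% lost. Neither region was counted among peaks with q under 1e-05 or where 50% of a region had to be covered.

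**Figure D2:**
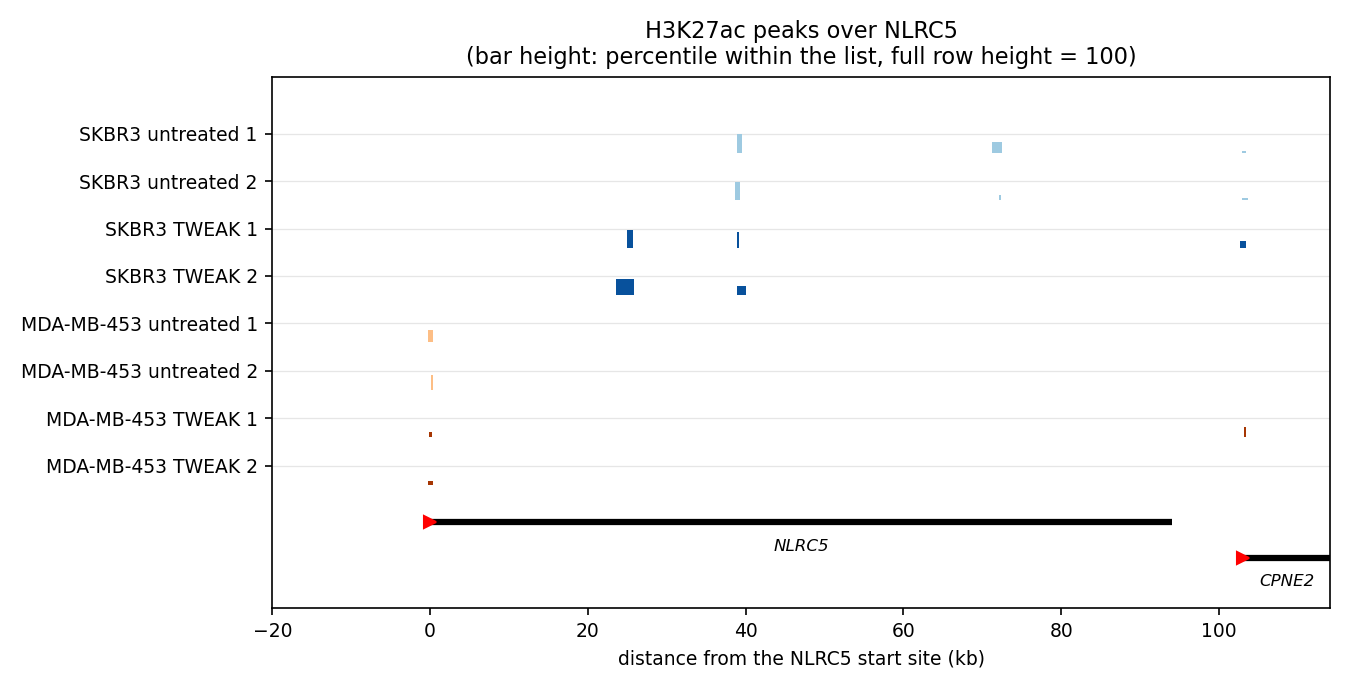
H3K27ac peaks across NLRC5 and 20 kb on each side in the 8 lists, with distance from the NLRC5 start site in kb on the horizontal axis, 1 row per library, bar width the peak width and bar height the percentile in the list. Black lines are genes and red arrows their start sites. MDA-MB-453 lists have a peak at the start site, and SKBR3 lists have peaks inside the gene, 1 of them in the TWEAK lists alone.

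In the cluster of TAP2, PSMB8, TAP1 and PSMB9 a region just past the 3′ end of PSMB9, at chr6:32860190-32862238 and outside protein-coding genes, was the single gained region of MDA-MB-453 in the windows. It lay 7022 bp from the nearest PSMB9 start site. In MDA-MB-453 it was absent from both untreated lists and stood at 32.7 and 22.9 with TWEAK, with fold enrichments of 3.84 and 3.49, and it was not counted as gained among peaks with q under 1e-05 or where 50% of a region had to be covered. In SKBR3 it was present in all lists, at 73.5 and 64.4 untreated and at 81.4 and 88.9 with TWEAK. The TWEAK lists were therefore above the untreated lists in both lines. The SKBR3 fold enrichments were 4.66 and 4.76 untreated and 6.67 and 8.29 with TWEAK. Of all merged regions seen in MDA-MB-453, 1.27% were gained and 1.31% lost, and the windows of the 9 genes held 1 gained and 0 lost.

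This region held a pair of NF-κB matches 17 bases apart, printed on the plus strand at chr6:32861301-32861417 with the matches in capitals because it is the region of the windows, outside start sites, that ranked higher with TWEAK in both lines. The stretch lay wholly under a peak in 4 SKBR3 and 2 MDA-MB-453 lists.
Region past PSMB9: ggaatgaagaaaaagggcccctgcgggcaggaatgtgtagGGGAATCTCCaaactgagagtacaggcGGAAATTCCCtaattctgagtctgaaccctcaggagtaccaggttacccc
In the 1000 bp around their midpoints, 13.8% of all 76044 merged regions held an NF-κB match and 14.4% an ISRE match. The same window of the TAP1 and PSMB9 promoter region (chr6:32852603-32854612) held 3 NF-κB and 2 ISRE matches, that of the HLA-C region 2 and 1, that of the lost NLRC5 region 1 and 0, and that of the gained NLRC5 region 0 and 1. Of the other regions, chr15:44719081-44720203 and chr6:33291210-33302624 held 1 NF-κB match each, and the latter ranked lower with TWEAK in SKBR3 and higher in MDA-MB-453. In these 1000 bp windows the regions at the starts of TRIM69, NLRC5, TAP2, PSMB8 and PFDN6 held 1 ISRE match each. The windows of the rest held neither. The B2M and TAPBP matches printed above lie outside the windows of their regions. The part of these matches in the TWEAK differences was not tested.

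**Figure D3:**
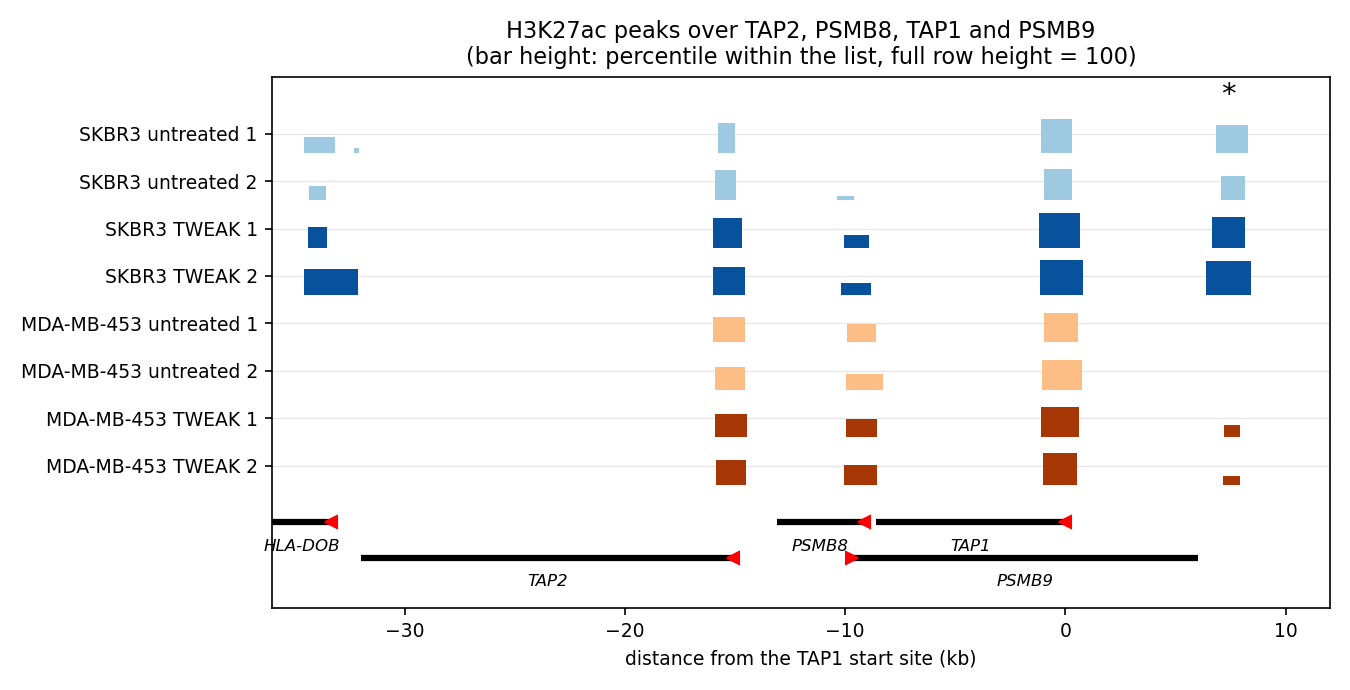
H3K27ac peaks over TAP2, PSMB8, TAP1 and PSMB9 in the 8 lists, with distance from the TAP1 start site in kb on the horizontal axis, 1 row per library, bar width the peak width and bar height the percentile in the list. Black lines are genes, red arrows their start sites, and the star marks the region past PSMB9, which is seen in all SKBR3 lists and, in MDA-MB-453, in the TWEAK lists.

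To ask whether the start-site peaks of class I genes ranked differently after TWEAK, both TWEAK lists were compared with both untreated lists of each line, and a gene was counted when the groups did not overlap. In SKBR3, TAP1, PSMB9 and PSMB8 were higher with TWEAK and TAP2 lower. The differences of the means were 6.85 points for the shared TAP1 and PSMB9 peak, 26.9 for PSMB8 and −3.65 for TAP2. Thus 3 of the 7 members tested were higher, against 9.24% of the 12250 genes tested, and 1 was lower, against 24.4%. TAP1 and PSMB9 entered this count by the same peak. A gene was tested where at least 1 list of the line had its peak, which held for 7 members and not for HLA-B and NLRC5. With these 2 entered at 0 and the shared peak counted for both genes, the median difference over the 9 members was 2.78 points. It was −1.36 over the genes tested and 0 over all 19962 genes with untested genes at 0. The median over the members was 0 among peaks with q under 1e-05 and 0 without TWEAK replicate 1. Among peaks with q under 1e-05 the differences were 0 for PSMB8, which had no such peak, and −3.84 for TAP2, and neither was then counted, whereas TAPBP was, at 6.58. In lists cut to equal size the PSMB8 difference was 9.02 points and that of TAP2 −7.48, and both were still counted. The endothelial marker CDH5 was also higher in both SKBR3 TWEAK lists (94.1 and 96.5 against 91.4 and 93.7), and its part in the result was not tested.

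In MDA-MB-453, HLA-C, B2M, TAP1, PSMB9 and TAPBP were higher with TWEAK and NLRC5 lower. The differences of the means were 3.03 points for HLA-C, 3.50 for B2M, 4.39 for the TAP1 and PSMB9 peak, 2.71 for TAPBP and −25.0 for NLRC5. Thus 5 of the 8 members tested were higher, against 25.7% of the 11959 genes tested, and 1 was lower, against 12.1%. TAP1 and PSMB9 entered this count by the same peak. With the 5′ end of each gene alone, PSMB9 was not counted and 4 members were higher. All members but HLA-B were tested. With HLA-B at 0 and the shared peak counted for both genes, the median over the 9 was 3.03 points. It was 0.454 over the genes tested and 0 over all 19962 genes. Among peaks with q under 1e-05 NLRC5 had none and was no longer counted. The epithelial markers KRT8 and KRT18, which share a peak here (94.9 and 94.3 untreated, 93.3 and 93.5 with TWEAK), and KRT19 (80.7 and 80.4 against 80.1 and 79.1) were lower in both TWEAK lists, and their part in the result was not tested. The TAP1 and PSMB9 peak was the only start-site peak of the set that was higher in both lines, which 2.43% of the 11050 genes tested in both lines were.

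None of these differences passed a test. With 2 lists against 2, the exact two-sided permutation test over 6 assignments cannot give a p below 0.333, and the smallest value adjusted by the Benjamini-Hochberg method over all genes for these members was 0.989 for SKBR3 and 0.881 for MDA-MB-453. Among members with a start-site peak in both lines, the difference in TWEAK effect between the lines was largest for PSMB8, at 22.4 points (exact permutation p = 0.278), where the smallest p the 36 assignments allow is 0.0556. Without SKBR3 TWEAK replicate 2, 5 members rather than 3 were higher in SKBR3, as HLA-C and B2M joined them, and the B2M difference turned from −1.75 to 3.97 points.

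**Figure D4:**
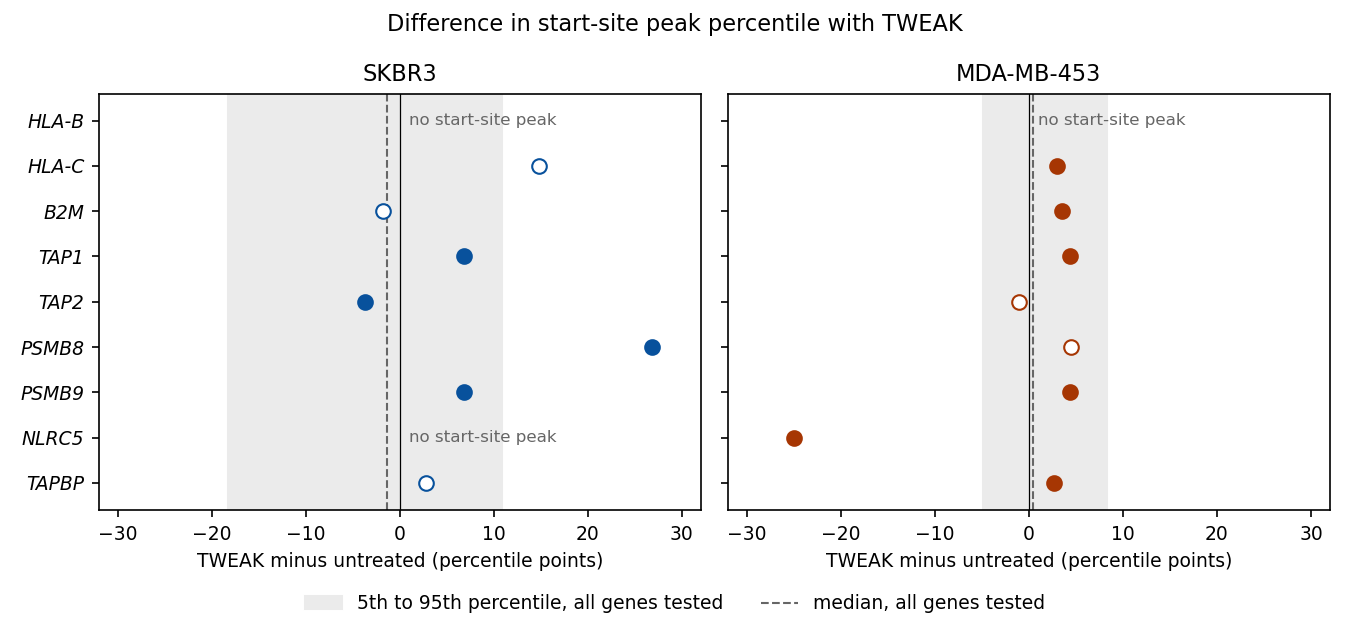
Difference in start-site peak percentile, TWEAK minus untreated, for each gene in each line (horizontal axis, percentile points). Filled points are genes whose TWEAK and untreated lists did not overlap, open points those that overlapped, the grey band the range from the 5th to the 95th percentile of all genes tested and the dashed line their median. PSMB8 in SKBR3 (26.9) and NLRC5 in MDA-MB-453 (−25.0) lie farthest from 0, and neither had a peak with q under 1e-05 in that line.

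The lines were then compared over all 8 lists. HLA-C, B2M, PSMB8 and NLRC5 were lower in all 4 SKBR3 lists than in any MDA-MB-453 list, and TAP2 and TAPBP were higher. The means of the 4 lists were 7.41 ± 14.8 (SD, n = 4) in SKBR3 and 93.8 ± 1.76 in MDA-MB-453 for HLA-C, a difference of −86.4 points. For B2M they were 76.5 ± 4.79 and 88.8 ± 2.42, for PSMB8 18.9 ± 16.2 and 47.6 ± 4.43, and for NLRC5 0 and 23.7 ± 14.7. TAP2 averaged 76.8 ± 2.64 in SKBR3 against 62.6 ± 2.71 in the other line, and TAPBP 95.3 ± 2.59 against 88.5 ± 1.90. Each of these 6 differences had an exact permutation p of 0.0286, the smallest that 70 assignments allow, and an adjusted p of 0.0484 by the Benjamini-Hochberg method over the 13159 genes tested. Genes whose lists did not overlap were common, with 28.8% of genes higher and 30.2% lower in SKBR3, against 2 and 4 of the 8 members tested.

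The TAP1 and PSMB9 peak was 8.36 points higher on average in SKBR3 (88.2 ± 4.61 against 79.9 ± 3.16, n = 4), but 1 SKBR3 list lay among the MDA-MB-453 values, and the exact permutation p of 0.0571 gave an adjusted p of 0.0893. In untreated lists alone the line differences were −92.3 points for HLA-C, −9.72 for B2M, −39.9 for PSMB8, −36.2 for NLRC5, 15.5 for TAP2 and 6.76 for TAPBP. In TWEAK lists alone they were −80.5, −15.0, −17.5, −11.2, 12.9 and 6.83 in the same order, so each kept its sign. Ranked by fold enrichment in place of the score, the adjusted p of the exact permutation test was 0.0922 for B2M and 0.0504 for the other 5 genes, so that none stayed under 0.05. Leaving out any 1 MDA-MB-453 list brought all 6 to 0.0645 or more, and leaving out any 1 SKBR3 list brought NLRC5 to 0.123 to 0.127. By the same test TAP2 came to 0.128 in lists of equal size and to 0.126 among peaks with q under 1e-05. Fold enrichment itself overlapped between the lines for TAPBP (10.3 to 20.3 in SKBR3, 12.5 to 13.6 in MDA-MB-453) and TAP2 (5.53 to 7.80, 4.95 to 6.09). For HLA-C, B2M and PSMB8 it was lower in every SKBR3 list with a peak.

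Peak widths at the start sites were compared in the same way. In SKBR3 the peaks of 5 of the 7 members tested were wider in both TWEAK lists, namely B2M, TAP1, PSMB9, TAP2 and PSMB8, against 14.2% of all genes tested. TAP1 and PSMB9 share 1 peak here and in the median below. The TAP1 and PSMB9 peak measured 1423 and 1287 bp untreated and 1854 and 1966 bp with TWEAK, and the TAP2 peak 798 and 936 bp untreated and 1314 and 1468 bp with TWEAK. The TAP2 peak was thus wider while its percentile was lower. PSMB8 measured 0 and 784 bp untreated and 1117 and 1401 bp with TWEAK. The median width of all peaks in the SKBR3 lists was 1249 and 1338 bp untreated and 1268 and 1301 bp with TWEAK, and the median difference at start sites was 524 bp over the 9 members, with HLA-B and NLRC5 at 0, −30.5 bp over the genes tested and 0 over all genes with untested genes at 0.

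In MDA-MB-453 no member had a wider peak in both TWEAK lists, against 18.7% of genes, and HLA-C had a narrower one, against 15.3%. The HLA-C peak measured 1870 and 1850 bp untreated and 1847 and 1668 bp with TWEAK. The TAP1 and PSMB9 peak measured 1558 and 1790 bp untreated and 1717 and 1577 bp with TWEAK, with overlap. By line, HLA-C and NLRC5 were wider in all MDA-MB-453 lists, with 35.9% of genes so placed, and no member was wider in all SKBR3 lists, against 19.3%. The SKBR3 minus MDA-MB-453 differences were −1680 and −484 bp (exact permutation p = 0.0286, adjusted p = 0.0518). No exact permutation p for a width difference with TWEAK was below 0.333.

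Over the whole windows, base pairs under peaks were higher in both SKBR3 TWEAK lists for TAP1, TAP2, PSMB8 and PSMB9, against 18.6% of genes, and lower for none, against 15.7%. These 4 windows overlap and share their peaks, so they are not separate findings. The TAP1 window held 3695 and 4102 bp untreated and 5761 and 6884 bp with TWEAK in SKBR3, and 4285 and 4872 bp against 5293 and 5174 bp in MDA-MB-453. Peaks of the whole genome covered 96.4 and 92.1 Mb untreated and 96.1 and 105.7 Mb with TWEAK in SKBR3. In MDA-MB-453, B2M, TAP1, PSMB8, PSMB9 and NLRC5 held more with TWEAK, against 19.1% of genes, and HLA-C less, against 16.4%. TAP1, PSMB8 and PSMB9 had the same mean difference of 655 bp from shared peaks. The NLRC5 lists were barely apart, with 648 and 208 bp untreated and 679 and 652 bp with TWEAK. Of the 679 bp, 250 bp lay at the start of CPNE2.

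By line, the NLRC5 window held 1668 to 3476 bp under peaks in SKBR3 and 208 to 679 bp in MDA-MB-453, the reverse of its start-site peak. In SKBR3 part of this lay at the start of CPNE2, outside NLRC5. That part was 555 and 789 bp in the untreated lists and 781 bp in TWEAK replicate 1. The TAPBP window held 18639 to 25477 bp in SKBR3 and 14549 to 15373 bp in MDA-MB-453. HLA-C held at most 517 bp in SKBR3 and at least 1668 bp in MDA-MB-453. Each of the 3 differences had an exact permutation p of 0.0286 (adjusted p = 0.0443), and 38.6% of genes held more and 25.9% less in all SKBR3 lists.

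Merged over the 8 lists, the peaks in the windows formed 21 of 76044 regions, of which 8 were in all 8 lists, 13 lay at a start site and 7 at that of a member. Regions present in all lists of 1 line and none of the other numbered 3 for SKBR3 and 1 for MDA-MB-453, against 14.1% and 10.5% of all regions. Besides the NLRC5 intron, the SKBR3 regions were an intron of PATL2 near B2M (chr15:44706667-44708149), at 49.8 and 40.4 untreated and 48.8 and 36.9 with TWEAK, and the start of HLA-DOB beside TAP2 (chr6:32819254-32821725). The MDA-MB-453 region was the NLRC5 start site (chr16:56989213-56989893). In percentile, 5 regions were higher and 5 lower with TWEAK in SKBR3 (17.6% and 11.4% of all regions seen there), and 6 and 2 in MDA-MB-453 (17.7% and 15.5%). Only the TAP1 and PSMB9 promoter and the region past PSMB9 were higher in both lines, as were 3.48% of the regions seen in both.

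Another 29 genes of the pathway, its regulators and the neighbouring class II region were measured alike. Of these, 18 had a start-site peak in all 8 lists and 6 in none (HLA-G, PSMB5, CIITA, CD74, HLA-DRA and HLA-DMB). Around PSMB5 4 to 8 peak numbers were missing in each list, so its absence is uncertain. With TWEAK 4 of the 29 were higher and 2 lower in SKBR3, where 21 could be tested, against 9.24% and 24.4% of all genes tested. In MDA-MB-453 9 were higher and 2 lower, with 22 tested, against 25.7% and 12.1%. By line 7 were higher and 7 lower in SKBR3, with 23 tested, against 28.8% and 30.2%.

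HLA-DOB, a class II chain that restrains peptide exchange, was marked in all SKBR3 lists (40.6 and 36.8 untreated, 55.2 and 69.2 with TWEAK) and in no MDA-MB-453 list. HLA-F, a non-classical class I gene, and ERAP2, a peptide-trimming enzyme of the endoplasmic reticulum, were marked in all MDA-MB-453 lists (15.0 to 31.9 and 20.3 to 34.0) and in no SKBR3 list. Among the rest, large line differences were those of RFXAP (−55.0 points), a subunit of the RFX complex that binds class I and II promoters, TAPBPL (−30.0), a tapasin relative, RFX5 (−19.9), another RFX subunit, and PSMB7 (17.7), a constitutive proteasome subunit. Each of these 7 genes had an adjusted p of 0.0484 in the exact permutation test.

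TAPBPL, PSME2 and IRF1 were higher with TWEAK in both lines, as were 2.43% of the 11050 genes tested in both. These 3 genes were picked out after their values were seen. Of the 29, NFYB and NFYC were lower with TWEAK in SKBR3, and RFXANK and NFYA in MDA-MB-453. In MDA-MB-453 NFYC was instead higher with TWEAK (95.8 and 96.1 against 95.6 and 95.5). IRF1, an interferon-responsive activator of class I genes, stood at 84.3 and 74.1 untreated and at 89.9 and 88.0 with TWEAK in SKBR3, and at 68.8 and 67.3 against 72.3 and 75.8 in MDA-MB-453. Over the 8 lists, the genes whose percentiles lay nearest to those of a member, by root mean square difference, were CALCOCO2 for HLA-C (8.36 points), KLLN for B2M (1.81), ALG8 for TAP1 and PSMB9 (2.18), VWDE for TAP2 (1.998), SLC38A7 for PSMB8 (8.67), RAD21L1 for NLRC5 (5.10) and BICD2 for TAPBP (1.29).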

How the data were processed

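Peak lists of 8 H3K27ac ChIP-seq libraries were used. The authors trimmed reads, mapped them to hg38 with Bowtie2, called peaks in every library separately with MACS2, subtracting input, and then took out blacklisted regions. Versions and calling options are not given in the sources used here. Each deposited list holds a score (the whole part of 10 times the −log10 q-value), a fold enrichment ratio over background and the −log10 of p and q, with q below 0.1. Missing peak numbers made up 1.17% to 1.34% of a list. The study compared signal with DiffBind, which needs reads, and read counts were not used here.

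Chromosomes 1 to 22 and X were analysed with GENCODE 44 in Python 3.11.15 with numpy 2.4.6 and pandas 2.3.3, and motifs with pysam 0.24.0. Overlap by 1 bp counted as presence. A start-site peak lay within 1 kb. Tests were exact two-sided permutation tests over libraries, with Benjamini-Hochberg adjustment over all genes with a start-site peak in at least 1 list compared. For base pairs under peaks, the adjustment was over all genes with a peak in their window in at least 1 list compared. The tests were tested on simulated data. Replicates are described as biological without naming separate cultures for these libraries, so p-values measure the spread between libraries. All members were named. Of the other pathway genes, those marked in all lists of 1 line and none of the other and the 5 others with the largest line difference were named, with every gained or lost region, up to 3 line-specific regions per line and the gene nearest to each member. The result of 1 of those 5 genes is not reported here. The members and lists were chosen with earlier results of these data known. Alternatives were ranking by fold enrichment, q under 1e-05, lists of equal size, start-site windows of 0.5 and 2 kb, coverage of at least 50%, the 5′ end of the gene alone, gene windows of 10 and 50 kb, peaks joined within 1 kb, all sequence names, omission of each library in turn and a block for the replicate number.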

Additional observations from a re-analysis of the deposited data

How the results depend on the processing

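Of 140 summary values recomputed under the alternatives other than leaving out a library, 118 stayed within their limits, and of 199 values of single genes 182 did. Only 1 line difference of NLRC5 and 1 of PSMB9 changed sign there. Staying within limits did not mean that a value was unchanged. Among peaks with q under 1e-05 the median TWEAK difference over the 9 members in SKBR3 fell from 2.78 points to 0. This median still counted as within its limits. So did the PSMB8 difference with TWEAK in SKBR3, which fell from 26.9 to 9.02 points in lists of equal size. With a start-site window of 2 kb, which reaches the SKBR3 intronic region, the NLRC5 line difference was 17.0 points and 2 members were lower with TWEAK in SKBR3. At its 5′ end alone PSMB9 had a line difference of −28.7, since that end lies under the PSMB8 peak. With q under 1e-05, 0 members were lower with TWEAK in either line, 1 was higher in all SKBR3 lists, 1 held more base pairs under peaks in its window with TWEAK in MDA-MB-453 and 1 in all SKBR3 lists. No region was then lost in SKBR3 (0) or gained in MDA-MB-453 (0), the region gained in SKBR3 was the HLA-DOB start and not the NLRC5 intron, and 1 region was specific to SKBR3 (past PSMB9) and 2 to MDA-MB-453 (the starts of HLA-C and PSMB8). With lists of equal size, 1 member was higher in all SKBR3 lists, 1 held more base pairs there, and 2 regions were gained (the NLRC5 intron and the PSMB8 start) and 0 lost in SKBR3. When 50% of the start-site window had to be covered, 3 members had a peak in all lists, and when 50% of a region had to be covered, 0 were lost in SKBR3 and 0 gained in MDA-MB-453, and the region gained in SKBR3 was the PSMB8 start. With gene windows of 50 kb, 8 members held more base pairs after TWEAK in MDA-MB-453. In SKBR3, 2 regions were gained and 2 lost, and 7 were specific to SKBR3 and 2 to MDA-MB-453.

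Leaving out 1 library at a time, members higher with TWEAK numbered 3 to 5 in SKBR3, those lower 1 to 2 in each line, those higher in all SKBR3 lists 2 to 4, those with wider peaks with TWEAK 1 to 4 in MDA-MB-453, those wider in all MDA-MB-453 lists 2 to 4, and those with more base pairs in their windows with TWEAK 4 to 7 in SKBR3. Regions gained numbered 2 to 3 in SKBR3 and 1 to 2 in MDA-MB-453, those lost 1 to 2 in SKBR3, and those specific to MDA-MB-453 1 to 2. The NLRC5 line difference had an adjusted p of 0.123 to 0.127 without an SKBR3 list, by exact permutation. The B2M difference with TWEAK in SKBR3 ranged from −7.47 to 3.97. Without SKBR3 untreated replicate 2 the TAP1 and PSMB9 line difference was 10.5 points (exact permutation, adjusted p = 0.0479).

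The 2 pairs of same-numbered libraries per line are too few to show whether the numbers pair the libraries. With the replicate number as a block, 3 members were higher and 1 lower in SKBR3 and 5 and 1 in MDA-MB-453, and 6 members were wider with TWEAK in SKBR3. Depth is unknown, so the absence of a peak does not show the absence of acetylation. Percentiles compare a peak with the rest of its own list and not its height between libraries. Results at TAP1, TAP2, PSMB8 and PSMB9 share peaks. No cause of a change between settings was tested except where named.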
